A study of Oryza sativa with 8 samples.

Results

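Salt against control in roots is the comparison described here. It sets the 2 root libraries of rice (Oryza sativa, cultivar Nipponbare) treated with 150 mmol NaCl for 24 h against the 2 root libraries of untreated plants of the same age, and these are 4 of the 8 libraries in the series. All plants were grown in liquid medium for 2 weeks, in bottomless plate wells, and the labels name no mutant, transgene or second agent in any group. The salt dose is given as an amount with no volume, so its concentration is not known. The other 4 libraries are leaves of the same design, 2 treated and 2 untreated. Libraries were assigned by their titles, because the tissue field reads shoot for the root libraries and seedling for the leaf libraries. The protocols speak of biological replicates without saying whether these were separate plants or pools, so p-values measure the spread between these libraries. In bulk tissue, fewer cells of a type and less RNA per cell cannot be told apart.

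The question is which known genes of ion and water transport, nutrient uptake, cell wall, defence metabolism and hormones differed in root after salt. Sodium enters roots along with the water stream, and cereals limit its passage to the shoot by retrieving it from xylem sap and by keeping up potassium uptake. Salt also lowers the water potential around the root, and abscisic acid is the hormone best known for the response to it. Rice roots, in addition, secrete diterpenoid phytoalexins and take up silicon in unusual amounts. They take up iron both as the free ion and bound to a secreted chelator.

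Expression was deposited as FPKM, the number of sequenced fragments per kilobase of transcript, scaled to the number of mapped fragments, so levels of different genes are on a per-length scale. The deposited files give identifiers without gene names, and none of the 55797 identifiers was found in the reference table. Names for 312 identifiers in 29 lists were therefore taken from published rice nomenclature. A name was kept only where the RefSeq table of another assembly (ASM3414082v1) holds it on the same chromosome, at a similar position and in the same gene order. This left 216 identifiers, 212 of them outside the marker lists, and the other names are not used here. Names rest on this match and not on a shared identifier. Several well-known salt genes, the plasma membrane sodium exporter and the vacuolar sodium antiporters among them, had no supported name and were not analysed here.

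The 4 root libraries had implied totals of 9060000 to 10070000 fragments, a lower estimate of depth read from the deposited confidence bounds. A gene entered the test if 2 or more libraries of the 8 reached 1 FPKM, which gave 23776 genes, and limma was run on log2(FPKM + 1). A gene is said to rise or fall where its adjusted p was under 0.05, and changes are given on that log2 scale with their standard error (SE). On this scale the change of weakly expressed genes is compressed. Over all tested genes 43.4% were called in root, with 29.1% higher and 14.4% lower under salt. The median change of all tested genes was 0.13 on the log2 scale, so changes are best read relative to that shift. After each library was divided by its 75th percentile the median change was 0, 41.1% were called, and the split was 21.0% higher and 20.0% lower. Of the called genes, 67.0% were higher on the deposited scale, 51.2% after 75th percentile scaling and 47.2% after quantile normalization.

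Tissue markers went with the titles, and 1 root library stood apart. The 4 root marker identifiers, which include the silicon transporters Lsi1 and Lsi2, summed to 2761 and 3174 FPKM in the root control libraries. In the root salt libraries, where Lsi1 and Lsi2 were lower, they summed to 1616 and 1641 FPKM. In the leaf libraries they summed to 5.41 to 13.7 FPKM. A supported name was held by 3 of these 4 and by 4 of the 9 leaf marker identifiers. The 9 leaf marker identifiers, among them a Rubisco small subunit gene and chlorophyll a/b-binding protein genes, summed to 35635 to 41188 FPKM in leaf. In root they summed to 423 FPKM in control replicate 1 and 109.6 FPKM in control replicate 2, and to 79.8 and 117 FPKM in the salt libraries. Control replicate 1 also held more of several regulators described below, among them OsWRKY71 and OsJAZ10. The part of this library in the results was measured by leaving it out.

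Of the 212 members of the lists, 204 passed the filter on low values and were tested. Salt raised 123 of them and lowered 20, against the background of 29.1% and 14.4% over all tested genes. Their median change was 0.86 on the log2 scale beside 0.13 for all tested genes. After 75th percentile scaling the counts were 113 and 26, and the median was 0.70. Without root control replicate 1 the counts were 120 and 17. The lists were chosen with results of these data known, so the counts describe them and do not set them apart from other genes. The same background applies to each list count below: 29.1% higher and 14.4% lower, or 21.0% and 20.0% after 75th percentile scaling.

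**Figure D1:**
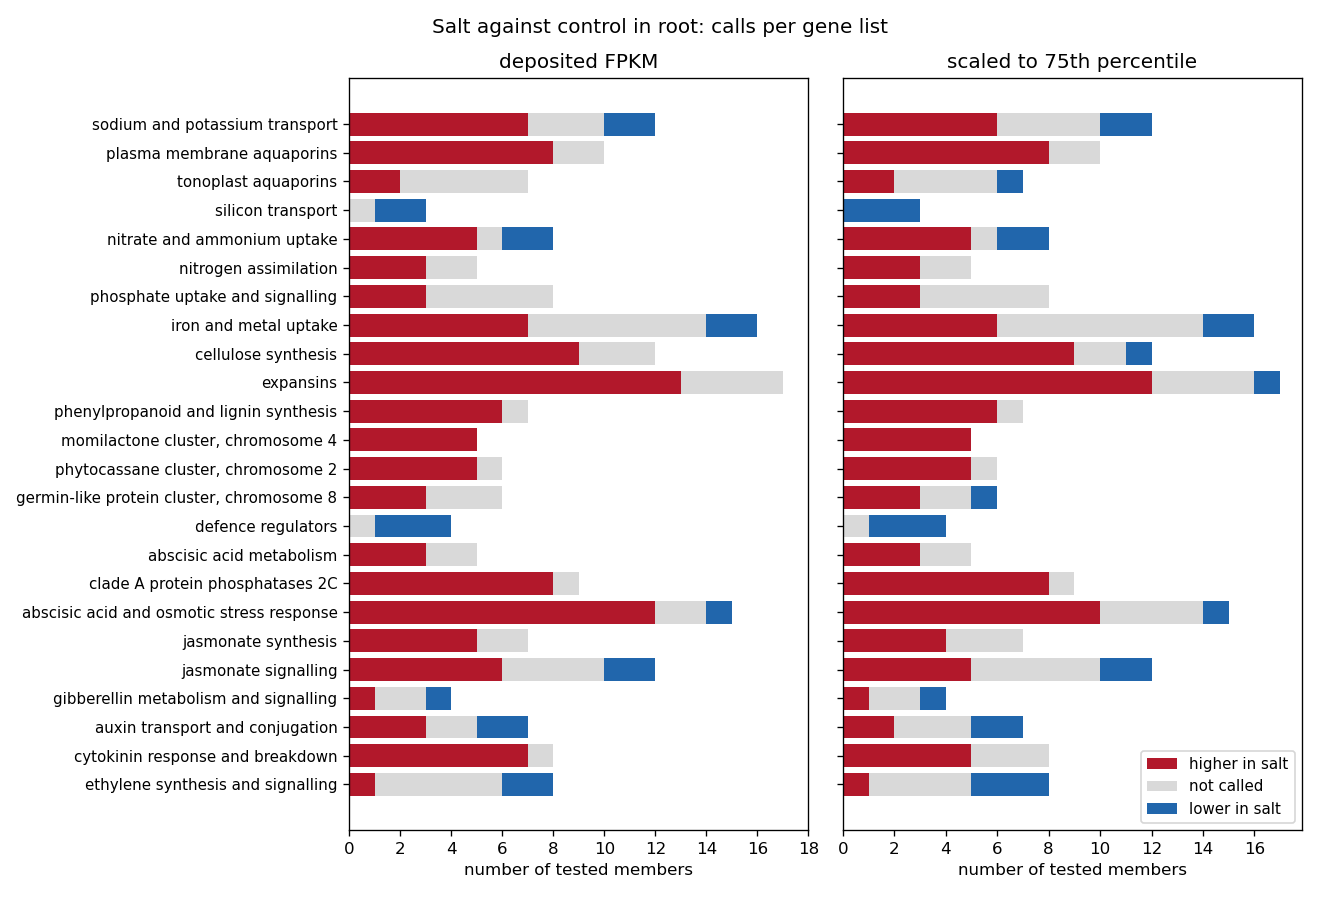
Number of tested members of each gene list that were higher under salt (red), lower (blue) or not called (grey), on the deposited FPKM scale (left) and after scaling each library to its 75th percentile (right). Lists with a single tested member are not drawn. Aquaporins of the plasma membrane, cellulose synthesis, expansins and protein phosphatases 2C are mostly red in both panels, and silicon transport has no red in either.

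Sodium and potassium transport genes moved in both directions, with 7 of 12 tested members higher and 2 lower (6 and 2 after 75th percentile scaling). The sodium transporter gene OsHKT1;5 (LOC_Os01g20160, chromosome 1, 11458955 to 11463442 in the deposited files, build not given in the sources used here), which retrieves sodium from xylem sap, had 1.86 and 1.68 FPKM in the control libraries and 27.9 and 17.2 FPKM in the salt libraries. Both salt libraries lay far above both controls, a 12.8-fold difference of means and a log2 change of 3.05 ± 0.22 (SE, n = 2 per group, limma adjusted p = 1.75e-04). OsHKT2;1, known for sodium uptake into potassium-starved roots, had 1.16 and 1.17 FPKM in the control libraries and 5.86 and 4.68 FPKM in the salt libraries, so it also rose (1.53 ± 0.15, adjusted p = 4.14e-04). OsHKT2;4 was listed at 0 in all 4 root libraries. The level of OsHKT1;3 was under 1 FPKM in every root library and it was not called.

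Potassium channel and transporter genes moved in both directions. OsAKT1 (LOC_Os01g45990, chromosome 1, 26119708 to 26126165), the inward potassium channel of the root, had 14.8 and 14.7 FPKM in the control libraries and 56 and 53 FPKM in the salt libraries. Replicates were nearly equal within each group, and the log2 change was 1.82 ± 0.09 (adjusted p = 6.71e-05). OsHAK1, a high-affinity potassium transporter, rose from 60.3 and 59.8 to 111 and 107 FPKM, and OsHAK16 rose from 5.17 and 4.45 to 18.5 and 14.9 FPKM. Both groups stood clear of each other for each gene, with log2 changes of 0.85 ± 0.09 and 1.6 ± 0.15. OsHAK7 went the other way, from 146 and 153 to 85.7 and 94.7 FPKM (-0.72 ± 0.09, adjusted p = 9.40e-04). OsHAK5 stayed under 0.5 FPKM in every root library and was not called.

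Of the salt overly sensitive pathway, a calcium sensor and a kinase known to control sodium export, the sensor and the kinase moved in opposite directions. OsCBL4, the sensor, had 3.87 and 4.08 FPKM in the control libraries and 7.59 and 7.41 FPKM in the salt libraries and rose by 0.77 ± 0.16 on the log2 scale (adjusted p = 0.00884). OsCIPK24, the kinase, fell from 37.5 and 42.8 to 23.5 and 28.6 FPKM (-0.61 ± 0.13, adjusted p = 0.009). The groups did not overlap for either gene. The proton pump gene OSA7, whose product energises transport across the plasma membrane, fell from 529.9 and 562 to 364 and 358 FPKM (-0.59 ± 0.12, adjusted p = 0.00902). Of the 4 proton pump genes proposed OSA7 alone had a supported name, and the others were not examined. The vacuolar potassium channel gene OsTPKb was called higher on the deposited scale (0.66 ± 0.16, adjusted p = 0.0178) but not after 75th percentile scaling (adjusted p = 0.055). Its adjusted p lay between 0.0613 and 0.0736 when any of the 4 root libraries was left out.

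Most water channel genes of the plasma membrane rose. Of 10 tested aquaporin genes of the PIP family, 8 rose and none fell under either scaling, and their median change was 1.87 on the log2 scale. OsPIP1;3 (LOC_Os02g57720, chromosome 2, 35349673 to 35351454) had 62.2 and 56.6 FPKM in the control libraries and 807 and 609.6 FPKM in the salt libraries. The lower salt library was still many times the higher control, and the means differed 11.9-fold (3.54 ± 0.14, adjusted p = 4.92e-05). OsPIP2;3 rose from 98.9 and 93.9 to 844 and 709.6 FPKM, a log2 change of 2.99 ± 0.12.

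OsPIP2;4 and OsPIP2;5, which lie close together on chromosome 7 and are similar enough in sequence that the division of reads between them is uncertain, rose from 44.6 and 46.7 to 494 and 457 and from 11.7 and 10.7 to 104 and 96.6 FPKM. The most abundant members in untreated root, OsPIP1;1 and OsPIP1;2, rose too. OsPIP1;1 went from 495 and 509 to 1239.6 and 1093 FPKM (1.21 ± 0.14) and OsPIP1;2 from 436 and 434 to 1325 and 1319 FPKM (1.6 ± 0.14). OsPIP2;1 and OsPIP2;2 also rose, by 2.13 ± 0.12 and 1.51 ± 0.12. The order of levels therefore changed: OsPIP1;3 held 62.2 and 56.6 FPKM in the controls, below OsPIP2;2, and lay above it in both salt libraries. OsPIP2;6 had 60.5 and 68.8 FPKM in the control libraries and 52.4 and 67.6 FPKM in the salt libraries, with overlapping groups (-0.11 ± 0.14, adjusted p = 0.555). OsPIP2;7 was called higher without control replicate 1 (adjusted p = 0.0319) and lower without control replicate 2 (adjusted p = 0.0116), at under 2 FPKM throughout.

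Aquaporin genes of the vacuolar membrane, the TIP family, had 2 of 7 tested members higher and none lower. Over all tested genes 29.1% were higher, so the share of this family is near the background. OsTIP2;1 had 34.1 and 54.4 FPKM in the control libraries and 227 and 179 FPKM in the salt libraries (2.2 ± 0.24, adjusted p = 6.58e-04). OsTIP1;2 rose from 53.1 and 45.5 to 168 and 163 FPKM (1.73 ± 0.13). In both genes the salt libraries lay above the controls with a wide gap. The 2 most abundant members, OsTIP1;1 and OsTIP2;2, were not called on the deposited scale (0.38 ± 0.21 and -0.36 ± 0.15). After 75th percentile scaling OsTIP2;2 was called lower (adjusted p = 0.0252). Under quantile normalization it was not (0.29), and OsTIP1;1 was called higher (adjusted p = 0.0394).

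**Figure D2:**
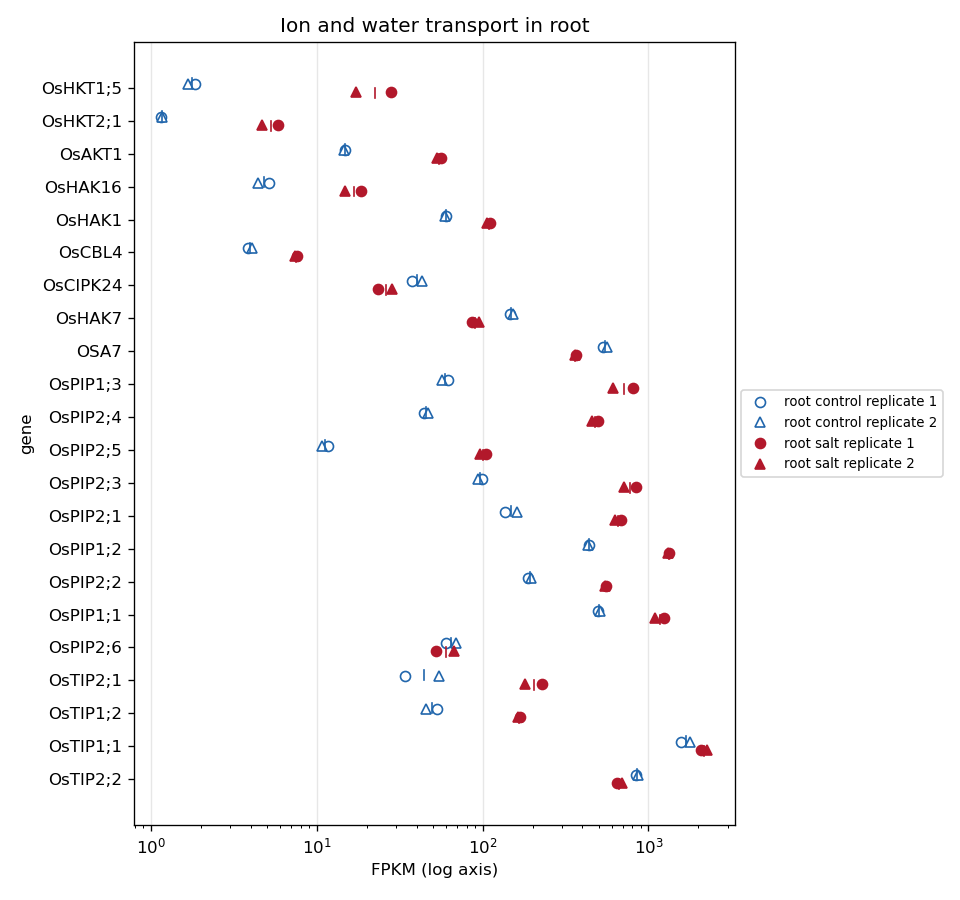
FPKM (log axis) of ion and water transport genes in the 4 root libraries, with open blue symbols for control, filled red for salt, circles for replicate 1, triangles for replicate 2 and short lines for the group means. OsHKT1;5 lies at 1.86 and 1.68 FPKM in control and at 27.9 and 17.2 FPKM in salt, and the symbols of OsPIP2;6 overlap.

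No silicon transport gene was called higher, and 2 of 3 were lower (3 after 75th percentile scaling). The influx channel Lsi1 (LOC_Os02g51110, chromosome 2, 31266245 to 31269960) had 1556 and 1688 FPKM in the control libraries and 574 and 576 FPKM in the salt libraries. Its control libraries were both well above its salt libraries, 2.82-fold by means, a log2 change of -1.49 ± 0.09 (adjusted p = 1.08e-04). The efflux transporter Lsi2 fell from 726 and 873 to 411 and 413 FPKM (-0.95 ± 0.15, adjusted p = 0.00295), a call that was lost with a pseudocount of 0.1 (adjusted p = 0.252). Its root change was the same there (-0.95), and with root libraries alone it was called (adjusted p = 0.0261). The spread is estimated over all 8 libraries, and in control leaf Lsi2 had 0 and 0.332 FPKM. Lsi6 was much less abundant, at 11.5 and 14.5 FPKM in control and 10.4 and 9.02 FPKM in salt, and was called lower only after 75th percentile scaling and quantile normalization (adjusted p = 0.0301 and 0.0239).

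Of 8 tested genes of nitrate and ammonium uptake, 5 rose and 2 fell under both scalings. The 2 that fell were the high-affinity nitrate transporter genes OsNRT2.1 (chromosome 2, 655324 to 657245) and OsNRT2.2 (chromosome 2, 667194 to 669053), near-identical neighbours whose reads may have been divided between them. OsNRT2.1 had 11.3 and 14.4 FPKM in the control libraries and 3 and 2.7 FPKM in the salt libraries, a fall of 4.52-fold by means (-1.84 ± 0.15, adjusted p = 2.41e-04). OsNRT2.2 fell from 17.7 and 22.8 to 4.47 and 4.23 FPKM (-1.98 ± 0.15). Salt libraries agreed closely for both genes and lay under all controls. Another tested nitrate transporter gene, OsNRT2.3, was not called (0.06, adjusted p = 0.805). Of the 13 genes proposed for this list 8 had a supported name. The others, all nitrate transporter genes, were not examined.

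The 4 ammonium transporter genes proposed for this list were all called higher, and no other gene of this kind was examined. LOC_Os02g40710 was low and in root passed 1 FPKM in the salt libraries only. OsAMT1;1 rose from 13.6 and 11 to 40.1 and 30.5 FPKM, LOC_Os02g40710 from 0.584 and 0.335 to 4.09 and 2.32 FPKM, LOC_Os02g40730 from 22.2 and 20.2 to 85 and 69 FPKM, and OsAMT2;1 from 6.65 and 6.41 to 23.7 and 22.2 FPKM. The identifiers stand for OsAMT1;2 and OsAMT1;3, names that the reference table gives to both genes in one spelling or another, so neither is assigned here. The log2 changes of the 4 genes in this order were 1.44 ± 0.15, 1.5 ± 0.22, 1.81 ± 0.21 and 1.67 ± 0.11, and no control library reached a salt library. The partner protein gene of the NRT2 transporters, OsNAR2.1, had 17 and 16.8 FPKM in the control libraries and 57.5 and 32.4 FPKM in the salt libraries. It was called higher (1.30 ± 0.25, adjusted p = 0.00628), and the call was lost with root libraries alone (adjusted p = 0.0532). Downstream of uptake, the cytosolic glutamine synthetase genes rose. OsGS1;1 went from 38.2 and 42.4 to 148 and 156 FPKM (1.89 ± 0.09) and the root form OsGS1;2 from 131 and 149 to 419 and 373 FPKM (1.5 ± 0.14). Of 5 tested nitrogen assimilation genes 3 rose, and the plastid form OsGS2 was not called. The other gene that rose was the glutamate synthase gene GLT2 (0.64, adjusted p = 0.0328). Its call was lost under quantile normalization (adjusted p = 0.104), with a pseudocount of 5 (0.121), without the filter (0.069) and with root libraries alone (0.0815).

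Of 8 tested phosphate genes 3 rose and none fell, beside 29.1% and 14.4% of all tested genes. Fewer rose without salt replicate 1. The median change was 0.23 beside 0.13 for all genes. The transporter gene OsPT4 had 32.8 and 29.7 FPKM in the control libraries and 90.4 and 67.7 FPKM in the salt libraries (1.30 ± 0.17, adjusted p = 0.00125). OsPT8, another phosphate transporter, rose from 136 and 110.0 to 216 and 171 FPKM (0.65 ± 0.15, adjusted p = 0.0126), and its call was lost with root libraries alone (adjusted p = 0.0735), without control replicate 2 (adjusted p = 0.0595) and without salt replicate 1 (adjusted p = 0.0646). OsPHO1;2, which loads phosphate into the xylem, rose from 32.3 and 31.6 to 65.7 and 57.9 FPKM (0.93 ± 0.20) but not without salt replicate 1 (adjusted p = 0.0586). The starvation regulator OsPHR2 stood at 47 and 46.7 FPKM in control and 46.8 and 47.6 FPKM in salt (0.01 ± 0.08).

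Iron and metal genes included one of the largest changes among the transporters. Of 16 tested members 7 rose and 2 fell (6 and 2 after 75th percentile scaling), and without control replicate 1 the counts were 4 and 2. The ferrous iron transporter gene OsIRT1 (LOC_Os03g46470, chromosome 3, 26286156 to 26292023) had 2.57 and 3.47 FPKM in the control libraries and 42.8 and 42.2 FPKM in the salt libraries. All salt values lay far above all control values, and the log2 change was 3.44 ± 0.15 (adjusted p = 6.13e-05). OsYSL15, which takes up iron bound to the chelator deoxymugineic acid, went in the other direction, from 28.8 and 30 to 14.4 and 15.6 FPKM (-0.93 ± 0.13, adjusted p = 0.00156).

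Genes for the chelator's precursors were mixed. OsNAS1 and OsNAS2 are neighbouring nicotianamine synthase genes of near-identical sequence, so the division of reads between them is uncertain. OsNAS1 had 59.8 and 99.7 FPKM in the control libraries and 39.1 and 57.5 FPKM in the salt libraries. OsNAS2 had 27.5 and 63.2 FPKM in the control libraries and 32.1 and 48.8 FPKM in the salt libraries. The groups nearly met for OsNAS1 and overlapped for OsNAS2, and neither was called. The other synthase gene, OsNAS3, rose from 8.64 and 10.2 to 22.2 and 19.5 FPKM (1.07 ± 0.14). OsNAAT1, the aminotransferase of the next step, was not called (-0.21 ± 0.14). The vacuolar iron transporter gene OsVIT2 had 3.95 and 6.32 FPKM in the control libraries and 24.2 and 41.5 FPKM in the salt libraries (2.44 ± 0.30, adjusted p = 0.00102). Among zinc transporters OsZIP1 fell from 177 and 182 to 90.6 and 85.4 FPKM (-1.02 ± 0.10), while OsZIP9 rose from 3.06 and 3.18 to 6.76 and 7.21 FPKM (0.96 ± 0.12). OsZIP4 was called higher (0.63 ± 0.15), but not without control replicate 1 (adjusted p = 0.0676) or salt replicate 1 (0.0803). OsNRAMP5, the manganese and cadmium uptake transporter, was called higher on the deposited scale (0.49 ± 0.10, adjusted p = 0.00919). It missed the threshold after 75th percentile scaling (adjusted p = 0.052), without control replicate 1 (0.0534) and without salt replicate 1 (0.056).

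**Figure D3:**
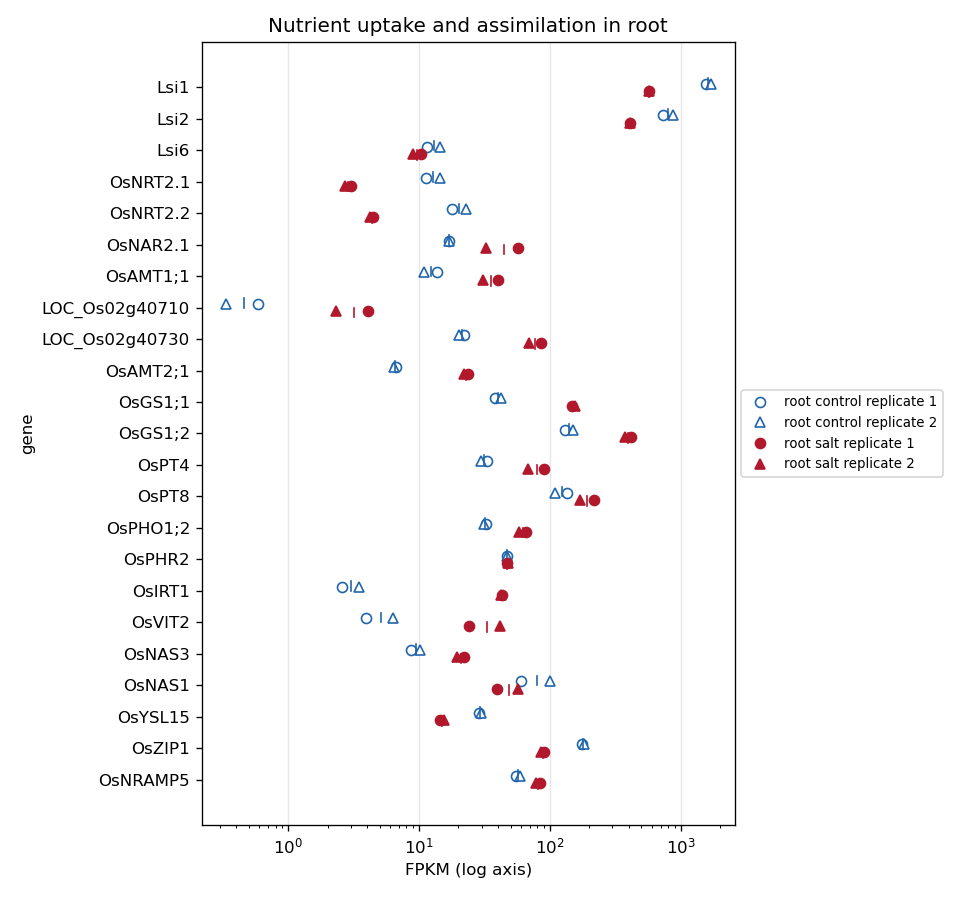
FPKM (log axis) of genes for nutrient uptake and assimilation in the 4 root libraries, drawn with open blue symbols for control, filled red for salt, circles for replicate 1, triangles for replicate 2 and short lines for means. Lsi1 and OsNRT2.1 lie lower in salt, OsIRT1 and the ammonium transporters lie higher, and the symbols of OsPHR2 coincide at about 47 FPKM.

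In cellulose synthesis 9 of 12 tested members rose and none fell, and after 75th percentile scaling 1 fell (OsCESA2, adjusted p = 0.0283). The cellulose synthase genes of the secondary wall rose by similar amounts. OsCESA4 went from 7.55 and 8.32 to 18.5 and 17.3 FPKM (1.08 ± 0.08), OsCESA7 from 7.21 and 7.56 to 18.7 and 17.3 FPKM (1.18 ± 0.11) and OsCESA9 from 7.36 and 8.75 to 17.2 and 17.7 FPKM (1.03 ± 0.10). Of the primary wall genes OsCESA1 had 21.6 and 22.5 FPKM in the control libraries and 57.3 and 53.1 FPKM in the salt libraries (1.28 ± 0.11, adjusted p = 2.90e-04), and OsCESA8 rose by 1.18 ± 0.10. OsCESA5 and OsCESA6 rose by 0.87 ± 0.08 and 0.99 ± 0.12. OsCESA3, also of the primary wall, had 58.5 and 62 FPKM in the control libraries and 51.9 and 58.1 FPKM in the salt libraries, and this pair of groups nearly met (-0.13 ± 0.11, adjusted p = 0.372). BC1, a COBRA-like protein of the secondary wall, had 2.58 and 2.39 FPKM in the control libraries and 10.6 and 6.1 FPKM in the salt libraries (1.38 ± 0.22), with the salt libraries further apart than the controls. The mixed-linkage glucan synthase gene OsCSLF6 rose from 18.2 and 18.7 to 33.2 and 32.4 FPKM (0.80 ± 0.09).

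Expansins, proteins that loosen the wall during growth, had 13 of 17 tested members higher and none lower. After 75th percentile scaling the counts were 12 and 1, the latter OsEXPA3, and without control replicate 1 they were 11 and 0. With root libraries alone they were 9 and 0. OsEXPB3 (LOC_Os10g40720, chromosome 10, 21847804 to 21849726) had 9.28 and 10.6 FPKM in the control libraries and 60.4 and 89.2 FPKM in the salt libraries (2.77 ± 0.19, adjusted p = 1.57e-04). Both salt values exceeded the controls several times over. OsEXPA2 rose from 2.75 and 3.03 to 13.8 and 19.6 FPKM (2.17 ± 0.15), OsEXPB2 by 1.92 ± 0.14, OsEXPB11 by 1.85 ± 0.25, OsEXPA8 by 1.64 ± 0.14 and OsEXPA4 by 1.62 ± 0.11. OsEXPA17, known from root hairs, was listed at 0 and 0.254 FPKM in control and had 1.75 and 2.64 FPKM in salt, so its log2 change of 1.5 ± 0.18 holds on the log2(FPKM + 1) scale only. The genes OsEXPB2, OsEXPB3, OsEXPB4 and OsEXPB6 lie side by side on chromosome 10 and all rose, OsEXPB4 with the smallest change (0.77 ± 0.17, adjusted p = 0.0118), which was lost without control replicate 1 (adjusted p = 0.0604) and with root libraries alone (0.0758).

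Of the phenylpropanoid pathway, which makes lignin monomers and soluble phenolics, 6 of 7 tested members rose and none fell under both scalings. Their median change was 2.15. Only 7 of the 17 genes proposed for this list had a supported name. Cinnamate 4-hydroxylase, cinnamoyl-CoA reductase and most of the proposed phenylalanine ammonia-lyase genes were not examined, so the counts do not cover the whole pathway. The caffeic acid O-methyltransferase gene OsCOMT had 185 and 208 FPKM in the control libraries and 947 and 803 FPKM in the salt libraries (2.15 ± 0.13, adjusted p = 1.13e-04). Cinnamyl alcohol dehydrogenase OsCAD2, the last step to the monomers, rose from 53.8 and 54.8 to 264 and 215 FPKM (2.11 ± 0.11). Neither gene had a control library near a salt library. The 4-coumarate:CoA ligase genes Os4CL3, Os4CL5 and Os4CL4 rose by 2.49 ± 0.12, 2.27 ± 0.20 and 0.85 ± 0.10. At the entry step, the phenylalanine ammonia-lyase gene ZB8 had 24.2 and 12.5 FPKM in the control libraries and 124 and 105 FPKM in the salt libraries (2.65 ± 0.27, adjusted p = 5.22e-04). A second ammonia-lyase gene, PAL (LOC_Os02g41630), was by far the more abundant, with 1997 and 2354 FPKM in the control libraries and 1802 and 1997 FPKM in the salt libraries. Its groups nearly met and it was not called (-0.19 ± 0.23, adjusted p = 0.551).

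Genes for diterpenoid phytoalexins, the antimicrobial compounds of rice, rose in both of their clusters. The momilactone genes form a cluster on chromosome 4, and all 5 members tested there rose, with a median change of 3.79 (3.64 after 75th percentile scaling). OsCPS4 (LOC_Os04g09900, chromosome 4, 5318060 to 5326427), the syn-copalyl diphosphate synthase that opens the pathway, had 2.8 and 2.82 FPKM in the control libraries and 69.1 and 85 FPKM in the salt libraries, 27.4-fold by means (4.35 ± 0.16, adjusted p = 4.78e-05). OsKSL4, the next cyclase, had 0.138 and 0.116 FPKM in the control libraries and 5.08 and 8.77 FPKM in the salt libraries (2.78 ± 0.23). All salt values lay above all control values by a wide margin. The cytochrome P450 genes CYP99A3 and CYP99A2 rose by 3.32 ± 0.15 and 3.79 ± 0.22. OsMAS, momilactone A synthase, rose from 2.24 and 1.84 to 42.6 and 40.8 FPKM (3.82 ± 0.13). In root, OsKSL4 reached 1 FPKM in the salt libraries only, so its place in the count could depend on the filter. CYP99A2 changed by 5.08 with a pseudocount of 0.1, so its control level was low as well. No member of this list was lost to the filter.

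In the phytocassane cluster on chromosome 2, 8 members were matched, 6 passed the filter and 5 rose. OsKSL7, ent-cassadiene synthase, had 0.437 and 0.155 FPKM in the control libraries and 9.07 and 17.8 FPKM in the salt libraries (3.42 ± 0.31, adjusted p = 3.44e-04). OsCPS2, the ent-copalyl diphosphate synthase, was listed at 0 and 0.026 FPKM in control and at 2.79 and 8.6 FPKM in salt. CYP76M6 rose from 0.0399 and 0.0419 to 6.44 and 9.4 FPKM (3.08 ± 0.21). For these 3 genes salt replicate 2 was the higher of the salt libraries, and no control library came near. CYP76M8, a cytochrome P450 gene within the same cluster, had 7.18 and 8.11 FPKM in the control libraries and 5.32 and 7.36 FPKM in the salt libraries with overlapping groups (-0.25 ± 0.16). OsKSL5 and OsKSL6, diterpene synthase genes of the cluster, did not pass the filter. The 8 matched members summed to 7.73 and 8.43 FPKM in the control libraries, nearly all of it CYP76M8. Each of the 5 that rose was therefore under 1 FPKM in both control libraries, and in root OsKSL7, OsCPS2 and CYP76M6 reached 1 FPKM in the salt libraries only. A member low in every library could not be counted. The count of 5 among 6 thus depends on the filter and does not describe the cluster as a whole.

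PBZ1 (LOC_Os12g36880, chromosome 12, 22599952 to 22601258), a pathogenesis-related protein of the PR10 family, was among the members with the largest change. Of the 6 genes proposed for its list PBZ1 alone had a supported name, and the others were not examined. It had 3.32 and 2.26 FPKM in the control libraries and 279 and 401 FPKM in the salt libraries, a difference of 122-fold by means (6.48 ± 0.20, adjusted p = 3.39e-05). Control values were at the level of a few FPKM in both libraries. In the germin-like protein cluster on chromosome 8, a group of secreted wall proteins linked to disease resistance, 3 of 6 tested members rose and none fell. OsGER6 rose from 71.2 and 74.1 to 451 and 393 FPKM (2.52 ± 0.20), RGLP2 from 62.8 and 65.8 to 395 and 332 FPKM (2.48 ± 0.15) and RGLP1 from 91.7 and 105 to 256 and 234 FPKM (1.31 ± 0.18). The call of RGLP1 was lost with a pseudocount of 0.1 (adjusted p = 0.0591), where its root change was 1.32. With root libraries alone RGLP1 was called (adjusted p = 0.0131), and its mean in salt leaf was 0.263 FPKM. The most abundant member, OsGER2, had 1116 and 1299 FPKM in the control libraries and 702 and 633 FPKM in the salt libraries. Its groups did not overlap, and it missed the threshold (-0.85 ± 0.30, adjusted p = 0.0566). It was called lower after 75th percentile scaling (adjusted p = 0.028) and also on the deposited scale with root libraries alone (0.0432), with a replicate block (0.0394) and with a pseudocount of 5 (0.0481). Copies in this cluster are similar, and the division of reads among them is uncertain.

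Among regulators of defence 3 of 4 tested members were lower and none higher under either scaling. Of the 6 genes proposed for this list 4 had a supported name. The list holds a co-activator as well as a repressor, so the counts give no direction for defence as a whole. The salicylate co-activator gene OsNPR1 had 114 and 124 FPKM in the control libraries and 45.7 and 50.7 FPKM in the salt libraries (-1.29 ± 0.12, adjusted p = 3.61e-04). The transcription factor gene OsWRKY62 (LOC_Os09g25070, chromosome 9, 14992803 to 14994888), known as a repressor of rice immunity, had 260.1 and 304 FPKM in the control libraries and 60.9 and 84.7 FPKM in the salt libraries, 3.87-fold lower by means (-1.95 ± 0.20, adjusted p = 5.11e-04). Control and salt values were clearly apart for both genes. OsWRKY76, its neighbour, fell from 65.8 and 29.4 to 13.8 and 16.1 FPKM (-1.5 ± 0.33, adjusted p = 0.0102), but the call was lost without salt replicate 1 (adjusted p = 0.0623) and with root libraries alone (0.0785). OsWRKY71 had 86.6 and 17.5 FPKM in the control libraries and 54.7 and 49.6 FPKM in the salt libraries, so the control libraries lay on either side of the salt libraries. It was not called (0.40 ± 0.63), it was called higher without control replicate 1 (adjusted p = 0.00395), and it was called lower without control replicate 2 (adjusted p = 0.0387).

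**Figure D4:**
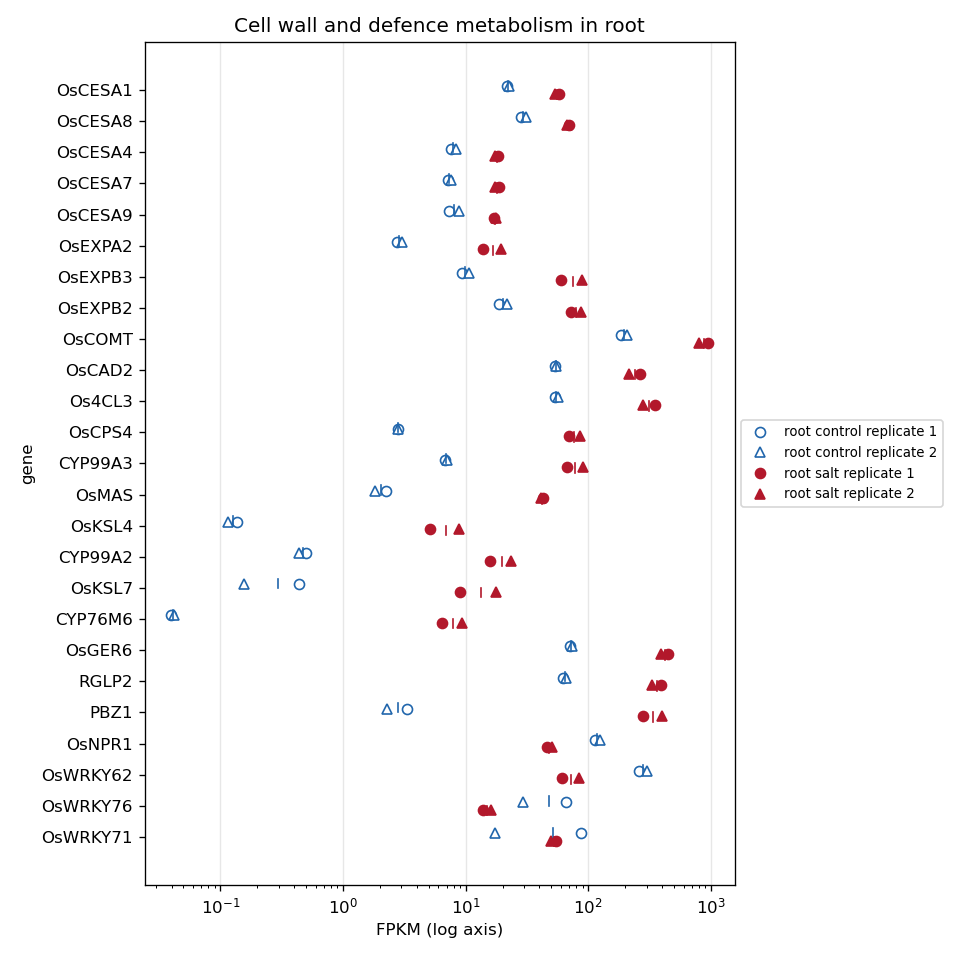
FPKM (log axis) of genes of the cell wall and of defence in the 4 root libraries, with open blue symbols for control, filled red for salt, circles for replicate 1, triangles for replicate 2 and short lines for means. PBZ1 moves from 3.32 and 2.26 FPKM to 279 and 401 FPKM, and the control symbols of OsWRKY71 stand on both sides of its salt symbols.

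Of 5 tested abscisic acid metabolism genes 3 rose and none fell. OsNCED3, a dioxygenase of the step that commits carotenoids to the hormone, had 0.516 and 0.0902 FPKM in the control libraries and 6.56 and 2.45 FPKM in the salt libraries (1.99 ± 0.36, adjusted p = 0.00505). The call was lost with root libraries alone (adjusted p = 0.0525). OsZEP1, zeaxanthin epoxidase, rose from 4.65 and 4.7 to 12.1 and 9.38 FPKM (1.04 ± 0.12). Among the hydroxylases that break the hormone down, OsABA8ox2 rose from 8.27 and 8.81 to 17.3 and 20.8 FPKM (1.07 ± 0.13). OsABA8ox1 had 63.7 and 23.5 FPKM in the control libraries and 41.6 and 32.3 FPKM in the salt libraries, with the salt values between the controls, and was not called (-0.08 ± 0.43, adjusted p = 0.91).

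Clade A protein phosphatases 2C, which hold the hormone's signalling kinases inactive and are induced by it, had 8 of 9 tested members higher under both scalings and without control replicate 1. OsPP2C30 had 1.48 and 0.15 FPKM in the control libraries and 17.4 and 13.4 FPKM in the salt libraries (3.27 ± 0.33, adjusted p = 5.12e-04), and OsPP2C49 rose from 1.18 and 0.752 to 16.3 and 11.8 FPKM (2.93 ± 0.19). OsPP2C06, OsPP2C09 and OsPP2C08 rose by 1.69 ± 0.14, 1.66 ± 0.14 and 1.6 ± 0.15. In each of these genes both salt libraries were above both controls. OsPP2C68 had 17.3 and 4.13 FPKM in the control libraries and 56.9 and 38.2 FPKM in the salt libraries (2.3 ± 0.53, adjusted p = 0.0129), and its call was lost without salt replicate 1 (adjusted p = 0.0792) and with root libraries alone (0.0918). OsPP2C51 was listed at 0 in both controls and stayed under 0.2 FPKM in salt.

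Of 15 tested genes of the abscisic acid and osmotic stress response, 12 rose and 1 fell (10 and 1 after 75th percentile scaling, 11 and 0 without control replicate 1). Dehydrins, hydrophilic proteins that accumulate in drying cells, led the list. RAB16D (LOC_Os11g26750, chromosome 11, 15320188 to 15321526) had 2.05 and 3.9 FPKM in the control libraries and 414 and 255 FPKM in the salt libraries, 113-fold by means (6.40 ± 0.33, adjusted p = 8.11e-05). Its neighbours rose too: RAB21 had 6.6 and 2.5 FPKM in the control libraries and 125 and 80.9 FPKM in the salt libraries, and RAB16B had 1.82 and 0.288 FPKM in the control libraries and 92.5 and 47.3 FPKM in the salt libraries. RAB16C was at 1.07 FPKM and 0 in the controls and at 91.4 and 41.8 FPKM in salt. In all 4 the salt libraries stood far above the controls, replicate 1 being the higher. These genes are similar copies, so levels of single members are uncertain.

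The group 3 LEA protein gene OsLEA3 had 8.99 and 1.94 FPKM in the control libraries and 333 and 146 FPKM in the salt libraries (5.36 ± 0.59, adjusted p = 7.00e-04). SalT, a lectin first found as a salt-induced root protein, was already abundant in control, with 368 and 388 FPKM in the control libraries and 1093 and 1062 FPKM in the salt libraries (1.51 ± 0.24). The homeodomain factor genes OsHOX22 and OsHOX24 rose by 4.17 ± 0.24 and 4.21 ± 0.44, and the bZIP factor gene OsbZIP23 rose from 11.7 and 11.5 to 70.7 and 49.1 FPKM (2.25 ± 0.16). OsP5CS1, of proline synthesis, had 25.8 and 27.2 FPKM in the control libraries and 35.2 and 37.2 FPKM in the salt libraries. It was called higher on the deposited scale (0.44 ± 0.11, adjusted p = 0.0166) but not after 75th percentile scaling (0.0869), without control replicate 1 (0.0713) or without salt replicate 2 (0.0731). The member that fell was the NAC factor gene OsNAC5, from 134 and 116 to 87.3 and 77.5 FPKM (-0.59 ± 0.13), a call lost without control replicate 1 (adjusted p = 0.0529) or salt replicate 2 (0.0568).

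Jasmonate synthesis had 5 of 7 tested members higher and none lower (4 and 0 after 75th percentile scaling). The lipoxygenase gene CM-LOX2 had 0.198 and 0.394 FPKM in the control libraries and 6.54 and 8.58 FPKM in the salt libraries (2.72 ± 0.23, adjusted p = 2.78e-04). The allene oxide synthase gene OsAOS2 had 4.96 and 1.82 FPKM in the control libraries and 31.9 and 27 FPKM in the salt libraries (2.89 ± 0.32, adjusted p = 6.94e-04). OsOPR7, a reductase of the pathway, rose from 31.1 and 33.3 to 61.4 and 56.5 FPKM (0.85 ± 0.09). For all 3 genes the groups were apart, and OsOPR1, another reductase, was called higher (1.04 ± 0.35, adjusted p = 0.0494) but not after 75th percentile scaling (adjusted p = 0.0893) or with root libraries alone (0.136). Without control replicate 2, salt replicate 1 or salt replicate 2 its adjusted p was 0.209, 0.227 and 0.0716. OsJAR1, which joins the hormone to isoleucine, was not called (0.05 ± 0.08).

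In jasmonate signalling 6 of 12 tested members rose and 2 fell (5 and 2 after 75th percentile scaling, 8 and 1 without control replicate 1, 6 and 1 without salt replicate 1). The repressor genes OsJAZ8, OsJAZ11, OsJAZ12 and OsJAZ4 rose by 2.09 ± 0.14, 2.36 ± 0.33, 1.59 ± 0.23 and 0.81 ± 0.09. OsJAZ11 had 7.62 and 3.39 FPKM in the control libraries and 35.6 and 26.2 FPKM in the salt libraries, whereas its neighbour OsJAZ10 had 43.7 and 7.85 FPKM in the control libraries and 22.5 and 16.2 FPKM in the salt libraries. The salt values of OsJAZ10 lay between its controls, and it was called higher without control replicate 1 (adjusted p = 0.00909) and lower without control replicate 2 (adjusted p = 0.0094). OsJAZ3 was called higher (0.35 ± 0.08) but not after 75th percentile scaling (adjusted p = 0.112), without control replicate 2 (0.0598) or without salt replicate 2 (0.0543). The receptor gene OsCOI1b fell from 89.6 and 87 to 46.7 and 56.8 FPKM (-0.77 ± 0.12, adjusted p = 0.00322).

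Auxin genes included the largest fall among all tested members. OsGH3-2 (LOC_Os01g55940, chromosome 1, 32221376 to 32225123), which conjugates auxin to amino acids, had 200.3 and 223 FPKM in the control libraries and 36.2 and 40.4 FPKM in the salt libraries. Its salt values were 5.53-fold lower by means (-2.44 ± 0.25, adjusted p = 5.49e-04). OsGH3-8, of the same family, rose from 7.93 and 6.54 to 20.5 and 17.9 FPKM (1.30 ± 0.23). The efflux carrier gene OsPIN1 (LOC_Os02g50960) fell from 52.5 and 58 to 25.8 and 33.4 FPKM (-0.89 ± 0.13), while OsPIN2 rose from 4.91 and 5.29 to 12.4 and 13.3 FPKM (1.18 ± 0.12). OsPIN1c was called higher (0.50 ± 0.13) but not after 75th percentile scaling (adjusted p = 0.0779), with root libraries alone (0.083), without control replicate 1 (0.0946) or without salt replicate 2 (0.0935). Of the 7 tested members 3 rose and 2 fell, and after 75th percentile scaling 2 rose and 2 fell.

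Cytokinin response genes had 7 of 8 tested members higher and none lower, 5 after 75th percentile scaling. The type-A response regulator gene OsRR4 had 13.6 and 13.8 FPKM in the control libraries and 32.9 and 34.2 FPKM in the salt libraries (1.23 ± 0.08, adjusted p = 1.50e-04). OsRR10 rose from 37.7 and 42.3 to 114 and 108 FPKM (1.45 ± 0.20), though it has a near-identical copy, OsRR9, so the division of reads between them is uncertain. The cytokinin oxidase gene OsCKX4 rose from 1.53 and 1.88 to 6.39 and 4.04 FPKM (1.18 ± 0.21). The groups of these 3 genes did not overlap. OsRR2 and OsRR9 rose by 0.75 ± 0.11 and 0.91 ± 0.22, the adjusted p of OsRR9 lying between 0.0525 and 0.0779 when any of the 4 root libraries was left out. OsRR6 was called higher (1.30 ± 0.38) but not after 75th percentile scaling (adjusted p = 0.056), nor with root libraries alone (0.103), nor without control replicate 2 (0.12), salt replicate 1 (0.15) or salt replicate 2 (0.0725). When control replicate 2, salt replicate 1 or salt replicate 2 was left out, 4 of the 8 were called.

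Ethylene genes gave 1 higher and 2 lower of 8 tested members, beside 29.1% and 14.4% of all tested genes. OsERS1 was in addition called lower after 75th percentile scaling (adjusted p = 0.0309). The receptor genes moved differently from each other. OsETR2 fell from 82.4 and 80.3 to 28.9 and 35.4 FPKM (-1.32 ± 0.14, adjusted p = 5.33e-04) and OsETR3 from 13.8 and 13.4 to 7.58 and 7.47 FPKM (-0.78 ± 0.10), while OsERS2 rose from 10.8 and 9.97 to 18.5 and 17.4 FPKM (0.73 ± 0.11). No control value lay within the salt values for these receptors. OsACO1, an ACC oxidase of ethylene synthesis, was not called (0.04 ± 0.21).

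Of 4 tested gibberellin genes 1 rose and 1 fell, beside 29.1% and 14.4% of all tested genes. These calls were not the same without salt replicate 1. EUI1, a cytochrome P450 that inactivates gibberellins, rose from 7.09 and 8.47 to 18.1 and 13.9 FPKM (0.95 ± 0.19), a call lost with a pseudocount of 0.1 (adjusted p = 0.0755). Its root change there was 1.02, and EUI1 was called with root libraries alone (adjusted p = 0.0354). GID1, the gibberellin receptor, fell from 86.9 and 91.9 to 70.6 and 77.1 FPKM (-0.27 ± 0.08), and its adjusted p was 0.0537, 0.115 and 0.122 without control replicate 1, control replicate 2 and salt replicate 1. With root libraries alone it was 0.0748. The repressor gene SLR1 had 85.7 and 63.9 FPKM in the control libraries and 67.9 and 76 FPKM in the salt libraries, and its groups overlapped (-0.04 ± 0.15). The single strigolactone gene with a supported name, D17, was not called (0.33 ± 0.18).

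**Figure D5:**
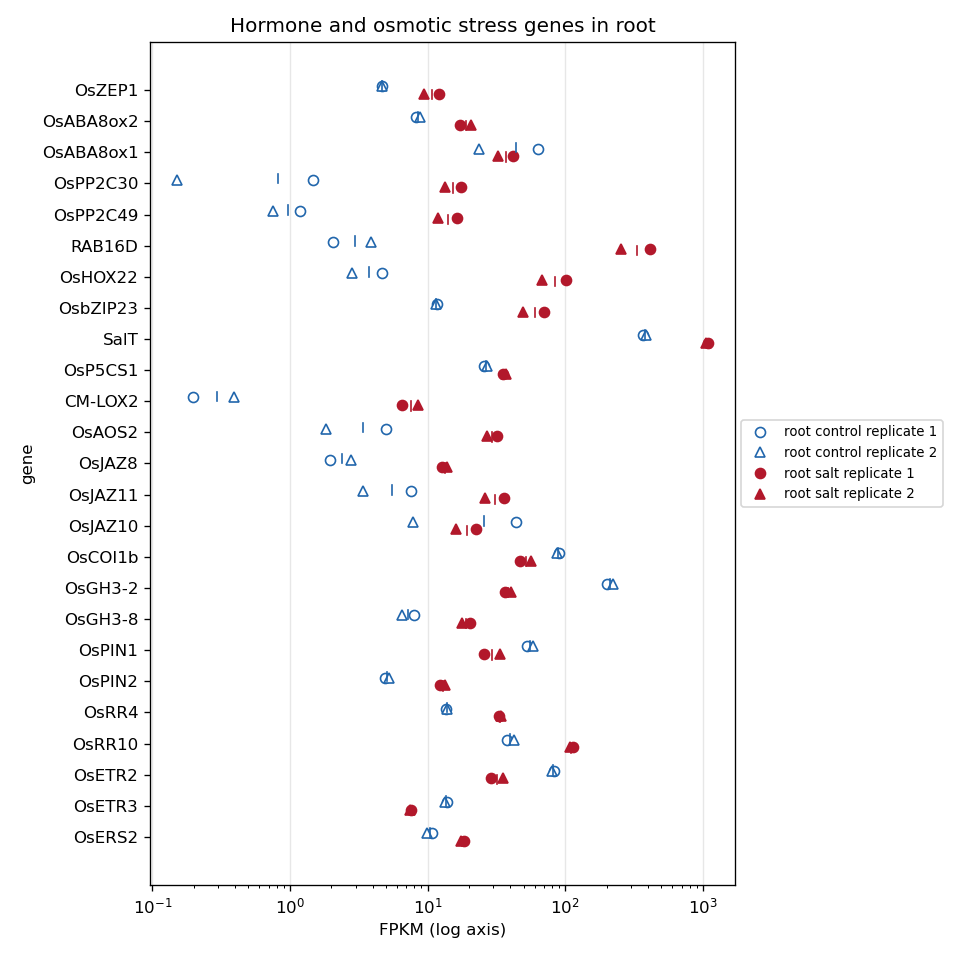
FPKM (log axis) of hormone and osmotic stress genes in the 4 root libraries, with open blue symbols for control, filled red for salt, circles for replicate 1, triangles for replicate 2 and short lines for means. RAB16D lies at 2.05 and 3.90 FPKM in control and 414 and 255 FPKM in salt, OsGH3-2 lies lower in salt, and the control symbols of OsJAZ10 and OsABA8ox1 enclose their salt symbols.

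The salt change in root was compared with the salt change in leaf through the difference between them, fitted in the same model. Of the 204 tested members 118 differed, 93 with a more positive change in root and 25 with a more negative one, beside 32.8% of all tested genes called for this difference, 23.1% more positive and 9.71% more negative in root. After 75th percentile scaling 112 differed, 85 more positive and 27 more negative, beside 31.7%, 17.4% and 14.3% of all tested genes. The median difference over all tested genes was 0.19 on the deposited scale and 0.03 after that scaling. On the deposited scale all 5 momilactone genes, 10 of 12 cellulose synthesis genes, 11 of 17 expansins, 6 of 7 phenylpropanoid genes and 7 of 10 plasma membrane aquaporin genes had a more positive change in root. After 75th percentile scaling these counts were 5, 10, 10, 6 and 6 in the same order. Among the protein phosphatases 2C none of 9 was more positive in root and 3 were more negative under both scalings. The abscisic acid and osmotic stress list held 4 members of each kind, and 3 and 4 after 75th percentile scaling. Called changes of opposite sign in root and leaf, with the difference called under both scalings, were seen in 29 of 204 members (14.2%) beside 4.94% of all tested genes. With at least 1 on the log2 scale in both tissues they were seen in 9 members (4.41%) beside 0.509% of all tested genes. The lists were chosen with leaf results known as well. OsPIP2;3 was near 0 in leaf. Its mean was 0.336 FPKM in control leaf and 0.272 FPKM in salt leaf, against 96.4 and 777 FPKM in root. OsAOS2 rose in root and had means of 8.71 and 6.62 FPKM in control and salt leaf.

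Outside the lists, the identifiers without a name that rose most were LOC_Os04g33920, with 0.953 and 1.73 FPKM in control and 255 and 289.5 FPKM in salt, and LOC_Os07g23660, with 14.5 and 13 FPKM in control and 2122 and 1038 FPKM in salt. Those that fell most were LOC_Os07g42650, with 103 and 115 FPKM in control and 2.89 and 3 FPKM in salt, and LOC_Os01g40560, with 123 and 142 FPKM in control and 3.94 and 4.49 FPKM in salt. Both salt libraries of each gene stood apart from both controls.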

How the data were processed

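RNA from 8 libraries of rice was measured, 2 for each tissue (leaf or root) and treatment (control or salt), and the 4 root libraries carry the comparison. The deposited values are FPKM per gene with confidence bounds, written by the authors in the Cufflinks tracking format, per the file headers. The submitters' processing notes list Cuffdiff, Cufflinks 2.2.1 and TopHat2 2.0.13. No build, annotation or strandedness is recorded for them (not given in the sources used here). Values of overlapping and near-identical genes are therefore uncertain. Coordinates are those of the deposited files, 1-based.

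Of 55797 identifiers, 23776 reached 1 FPKM in 2 libraries or more and were tested as log2(FPKM + 1). limma 3.58.1 in R 4.3.3 fitted 4 group means over all 8 libraries, with a mean-dependent variance prior, and p-values were adjusted by the Benjamini-Hochberg method over all tested genes at a threshold of 0.05. All groups share 1 estimate of spread because each has 2 libraries. The fit was tested on simulated data. Depth is not stated. It was estimated as the sum over genes of the fragments that each confidence bound implies.

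The members and lists were chosen with earlier results of these data known. Of 312 identifiers proposed from published nomenclature, 216 had a name that the RefSeq table (ASM3414082v1) supports by chromosome, position, length and order, 95 had none and 1 was not in the tables. The limits of this match and some alternative spellings were set after the table was seen, and the names CYP99A2 and CYP99A3, first crossed, were put right from it. Numbered names are not unique in that table: OsAMT1;2, OsAMT1;3, OsPT1 and several OsJAZ numbers stand on more than 1 gene, and apart from the ammonium transporter pair the number of published nomenclature was kept. Named genes are fixed members of each list plus up to 6 called members with the largest change and a mean of 5 FPKM or more in whichever root group was higher. Other genes named, such as members with no call, were chosen after their values were seen. Alternatives were 75th percentile scaling, quantile normalization, pseudocounts of 0.1 and 5, no filter, root libraries only, a replicate block, and leaving out each root library.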

Additional observations from a re-analysis of the deposited data

Results flagged for a closer look

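For 9 of 204 members (4.41%, beside 0.509% of all tested genes) the salt change was called in both tissues with opposite sign and at least 1 on the log2 scale in each, and the difference between root and leaf was itself called under both scalings. The difference, root minus leaf, was 5.77 for RGLP2, 4.77 for RGLP1 and 4.18 for OsGER6, all germin-like protein genes on chromosome 8 that rose in root and fell in leaf. RGLP2 had leaf means of 31.3 FPKM in control and 2.3 FPKM in salt. The momilactone gene OsCPS4 differed by 5.74, with leaf means of 2.9 and 0.489 FPKM. The expansin genes OsEXPA2 and OsEXPA4 differed by 3.48 and 3.47. The ammonium transporter gene OsAMT2;1 differed by 2.97 and the potassium channel gene OsAKT1 by 2.96, the latter with leaf means of 8.59 and 3.34 FPKM. OsGH3-2, which fell in root, rose in leaf from 1.01 to 3.16 FPKM, a difference of -3.47. At any size of change, 29 of 204 members (14.2%) had opposite called changes in the 2 tissues, beside 4.94% of all tested genes. The lists were chosen with root and leaf results known, so these shares do not set the members apart from other genes. The germin-like genes are similar copies, and the division of reads among them is uncertain.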

How the results depend on the processing

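Of the 143 members called in root, 113 kept their call and direction under all 11 alternatives. Scaling to the 75th percentile lost 10 of the 143 calls and quantile normalization 12, and 6 members gained a call under each. Root libraries only and leaving out salt replicate 1 each lost 17. No called member changed direction under any of the 11. Over all genes 6918 rose and 3412 fell. Under quantile normalization 5262 fell and 4711 rose. Leaving out 1 root library gave 5304 to 5587 genes that rose and 2257 to 3190 that fell, the lowest without salt replicate 1, and the remaining library of that group was then assumed to vary like the other groups. The replicate block gave 6691 that rose and 3321 that fell, and it lost 2 of the 143 calls (OsBADH1 and OsOPR1) and gained 3 (OsGER2, OsAOS1 and OsACS1, with adjusted p of 0.0394, 0.0284 and 0.0276). The same-numbered root libraries deviated together with a correlation of 0.213, and other pairs of groups with -0.021 to 0.0698, so the numbers are not treated as pairs.

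PBZ1 and RAB16D had the largest changes on the deposited scale, 6.48 and 6.40, and their order turned without control replicate 2 (6.28 and 6.74) and salt replicate 2 (6.22 and 6.75), and RAB16C passed both with a pseudocount of 0.1 (7.5 against 6.88 and 6.79).

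Members without a call could depend on 1 control library. Without control replicate 2, OsWRKY71, OsJAZ10 and OsPIP2;7 were called lower, with log2 changes of -0.72, -1.15 and -0.75. Without control replicate 1 they were called higher, with 1.52, 1.18 and 0.55. With 2 libraries per group, small changes cannot be told from the spread between libraries, and levels under 1 FPKM are compressed by the added constant.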
